A study of Mus musculus with 12 samples.

Results

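The 10 liver genes described here were chosen for their place in the liver lobule: Glul, Slc1a2, Oat, Rhbg, Axin2, Tbx3, Rnf43, Gulo, Lect2 and Lhpp. They were taken by symbol from the deposited count table as a set of pericentral genes and genes known as targets of Wnt signaling, and all 10 of 56748 genes in the table passed the filter on low counts in every comparison. RNA-seq was done on whole livers of mice after a 24 h fast, with 4 livers in each of 3 genotypes. The SKO livers are those labelled CPT2 liver-specific KO, and Cpt2 is needed to bring long-chain fatty acids into mitochondria for oxidation. The DKO livers are those labelled ATF3;CPT2 liver-specific double KO, and Atf3 is a stress-induced transcription factor. The WT livers came from the mice labelled CPT1A/1B/2 triple floxed control, which carry floxed alleles. The study's text describes its RT-qPCR controls as floxed for Atf3 and Cpt2 instead, and where the control line differs from the others, line and deletion cannot be told apart. Per the study's methods the lines were on a C57BL6 background, and Albumin-Cre drove deletion, so that hepatocytes lose the gene and other liver cells keep it. The labels give neither age nor sex, and the study's text describes the sequenced livers as male.

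In each lobule, blood flows from the portal vein to the central vein, and hepatocytes along this path express different enzymes. Endothelial cells of the central vein release Wnt ligands and R-spondin, which stabilise beta-catenin in the nearest hepatocytes and turn on the pericentral program. The best known marker of this zone is Glul, whose product glutamine synthetase captures the ammonia that escaped the periportal urea cycle.

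Sequencing gave 14710304 to 20030055 counted reads a liver (median 17908507). Cpt2 was lower in every SKO and DKO liver than in every WT liver. As CPM (counts scaled to the size of the library, with TMM factors) they were 199 to 252 in WT, and the SKO range of 108 to 157 overlapped the DKO range of 101 to 127. Atf3 had 17 to 39 counts in WT and 259 to 1056 in SKO. Among DKO livers it had 164 to 265 counts in replicates 1 to 3 (7.92 to 13.6 CPM), above every WT liver (1.11 to 2.16 CPM) and under every SKO liver (14.5 to 53.4 CPM), and 5 counts in replicate 4. The counts are for the whole gene, and whether they include the deleted part is not given in the sources used here. So DKO names the label only. The Atf3 counts of replicates 1 to 3 do not show a loss against WT, where Atf3 was low, and do show less than in SKO. By RT-qPCR, the study reports that the rise of Atf3 mRNA with Cpt2 deficiency was blocked in its double knockouts of both sexes. DKO replicate 4 also stood apart in the whole library. The chi-square per degree of freedom against the other DKO livers was 194 to 231, against 27.7 to 33.3 among the other DKO livers. DKO replicate 4 and SKO replicate 3 had 20855 and 18063 counts of Xist, a transcript of female cells, and 0 and 2 counts over 4 Y-linked genes. The other 10 livers had at most 19 Xist counts and 2741 to 4294 Y-linked counts. Values of the 10 genes are given with and without the livers high in Xist. With bulk tissue, fewer cells of a type and less RNA per cell cannot be told apart.

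On the length-scaled FPKM deposited by the authors, the 10 genes spanned a wide range in WT livers. Oat was highest with 724 ± 85.6 FPKM (SD, n = 4), followed by Glul with 329.6 ± 17.0, Gulo with 146 ± 14.4 and Lect2 with 54.5 ± 7.66. Lhpp had 39.2 ± 3.90 and Slc1a2 had 23.4 ± 2.66 FPKM. The known Wnt targets were much lower, at 6.09 ± 1.45 FPKM for Rnf43, 5.94 ± 1.58 for Tbx3 and 2.74 ± 0.754 for Axin2. Rhbg was lowest with 1.73 ± 0.212 FPKM. The WT ranges of neighbours in this order overlapped for Rnf43 with Tbx3 and for Axin2 with Rhbg, and for no other neighbours. In SKO livers Lhpp, with 29.3 ± 11.3 FPKM, had a higher mean than Gulo, with 23.7 ± 5.23, and their ranges overlapped. Axin2, with 4.18 ± 1.67 FPKM, had a higher mean than Rnf43, with 3.29 ± 1.06, and these ranges overlapped as well.

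Some of these genes share their locus with others. The deposited table names no build. The submitters' processing notes list GRCm38, whereas 0 of the 10 genes had the position given by GENCODE M21 on GRCm38 and all 10 had the same width, so the positions below are those of the table only. Oat (chr7:132159207-132178127, minus strand) and Lhpp (chr7:132212367-132308149, plus strand) are read in opposite directions, with starts 34240 bp apart and 2 other genes between them, each with at most 8 counts in all. The table's interval of Fgfr2, a growth factor receptor gene on the strand of Oat, overlaps both, and its 6696 counts over the 12 livers equal 2.68% of the Oat counts and 38.2% of the Lhpp counts. Tbx3 (chr5:119808734-119822789) is overlapped by the antisense transcript Tbx3os1, whose counts equal 21.2% of those of Tbx3. Whether the counting used strand is not given in the sources used here, so reads of such partners may not be separated. For Glul (chr1:153775690-153785469), Slc1a2 (chr2:102489004-102621129), Axin2 (chr11:108811175-108841609) and Rnf43 (chr11:87553548-87626365), each overlapping gene had at most 3.27% of the member's counts. The share was 5.80% for Rhbg (chr3:88150181-88162016). Gulo (chr14:66224235-66246656) and Lect2 (chr13:56690277-56696315) overlapped no other gene. The Glul pseudogene Glns-ps1 had 54 counts in all.

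RefSeq promoter windows on GRCm38.p6 were matched by symbol for 6 of the 10 genes in 7 windows, namely Glul, Slc1a2, Oat, Rnf43, Axin2 and Lect2. Rhbg, Tbx3, Gulo and Lhpp were not matched. The 250 bases before the annotated start were searched on both strands for CTTTGAT, the core of the site bound by TCF and LEF factors, the nuclear partners of beta-catenin, and for its shorter form CTTTGA, which every match of the longer form contains. CTTTGAT was found for 2 of the 6 genes, Slc1a2 and Lect2, that is in 2 of the 7 windows. It was found in 3.21% of all 32851 windows, which belong to 27025 genes, and the share of genes was not counted. CTTTGA was found for the same pair of genes and in 13.8% of all windows. The windows of these genes are shown because both transcripts were lower in SKO livers, beside that of Glul, which was lower without a match, and that of Axin2, the feedback gene that was not. Capitals mark CTTTGAT or CTTTGA on either strand, reading 5′ to 3′ on the strand of the gene. The Slc1a2 window is chr2:102706188-102706437 on the plus strand, with matches starting 207 and 77 bases before the annotated start that this window precedes. Whether that is the outermost start of Slc1a2 or a start inside the gene was not checked. That of Lect2 is chr13:56548539-56548788 on the minus strand, with its match starting 32 bases before. Those of Glul, chr1:153899679-153899928, and Axin2, chr11:108920099-108920348, are on the plus strand. A match describes letters only, and no match says nothing of binding elsewhere.
Slc1a2: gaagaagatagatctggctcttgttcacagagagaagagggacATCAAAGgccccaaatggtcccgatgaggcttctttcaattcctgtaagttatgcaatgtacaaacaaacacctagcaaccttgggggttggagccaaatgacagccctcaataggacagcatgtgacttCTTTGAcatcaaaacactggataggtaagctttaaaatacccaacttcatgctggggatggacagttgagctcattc
Lect2: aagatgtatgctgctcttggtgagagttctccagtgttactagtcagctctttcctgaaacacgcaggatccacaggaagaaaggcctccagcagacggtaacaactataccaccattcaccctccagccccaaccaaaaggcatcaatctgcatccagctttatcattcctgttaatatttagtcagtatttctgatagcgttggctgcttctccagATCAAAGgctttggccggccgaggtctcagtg
Glul: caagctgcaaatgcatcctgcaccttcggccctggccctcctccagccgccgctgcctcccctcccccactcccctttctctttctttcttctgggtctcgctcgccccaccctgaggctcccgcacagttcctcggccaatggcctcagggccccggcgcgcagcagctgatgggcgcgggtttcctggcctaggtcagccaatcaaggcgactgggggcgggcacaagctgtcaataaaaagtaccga
Axin2: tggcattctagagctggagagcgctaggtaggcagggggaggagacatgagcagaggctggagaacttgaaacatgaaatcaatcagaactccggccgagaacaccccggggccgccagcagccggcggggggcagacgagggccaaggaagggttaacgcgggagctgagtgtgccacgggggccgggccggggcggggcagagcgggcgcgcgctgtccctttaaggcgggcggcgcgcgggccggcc

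SKO against WT asked how loss of Cpt2 in hepatocytes moved these genes in the fasted liver. Glul, Slc1a2, Oat, Rhbg, Gulo, Lect2 and Rnf43 were lower in SKO livers, while Axin2, Tbx3 and Lhpp did not pass the test. In all, 7 of the 10 genes passed edgeR's quasi-likelihood test at an adjusted p under 0.05, and all 7 were lower. Over all 14261 genes tested, 32.1% were called, and 15.4% were called lower. The median log2 fold change of the 10 genes was -1.29, against 0.031 for all genes tested. The groups did not overlap, with SKO lower, for 6 of the 10 genes and for 16.6% of all genes tested.

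Glul was at 1265, 1235, 1157 and 1129 CPM in WT livers, at 349.6, 165, 555 and 170.3 CPM in SKO and at 236, 279, 284 and 1431 CPM in DKO. Every SKO liver was well under every WT liver, and DKO replicate 4 alone among the knockouts was above all WT livers. The SKO level was 3.83-fold lower than WT (log2 fold change -1.94, SE 0.34, adjusted p = 0.00119). Slc1a2, the glutamate transporter GLT-1 found in hepatocytes next to the central vein, had 267, 284, 342 and 284 CPM in WT, 76.6, 35.5, 172 and 41.6 in SKO, and 47.6, 79.0, 66.7 and 428 in DKO. It followed the order of Glul in SKO livers, with replicate 3 highest and replicates 2 and 4 lowest. The SKO level was 3.59-fold lower (log2 fold change -1.84, SE 0.41, adjusted p = 0.00505), and without SKO replicate 3 the log2 fold change was -2.50 (SE 0.26, adjusted p = 4.04e-05).

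Oat encodes ornithine aminotransferase, which converts ornithine to a precursor of glutamate and proline. Its CPM was 1465, 1918, 1544 and 1629 in WT, 613, 548, 1022 and 682 in SKO, and 836, 913, 879 and 1965 in DKO livers. SKO and WT did not overlap. The SKO level was 2.27-fold lower (log2 fold change -1.18, SE 0.19, adjusted p = 0.000789). Rhbg, an ammonium transporter of the cell membrane, was a low transcript with 48 to 60 counts in WT livers. SKO livers had 3 to 26 counts, and DKO livers had 8 to 55, the largest again in replicate 4. SKO was 3.58-fold lower than WT with no overlap (log2 fold change -1.84, SE 0.44, adjusted p = 0.00741).

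**Figure D1:**
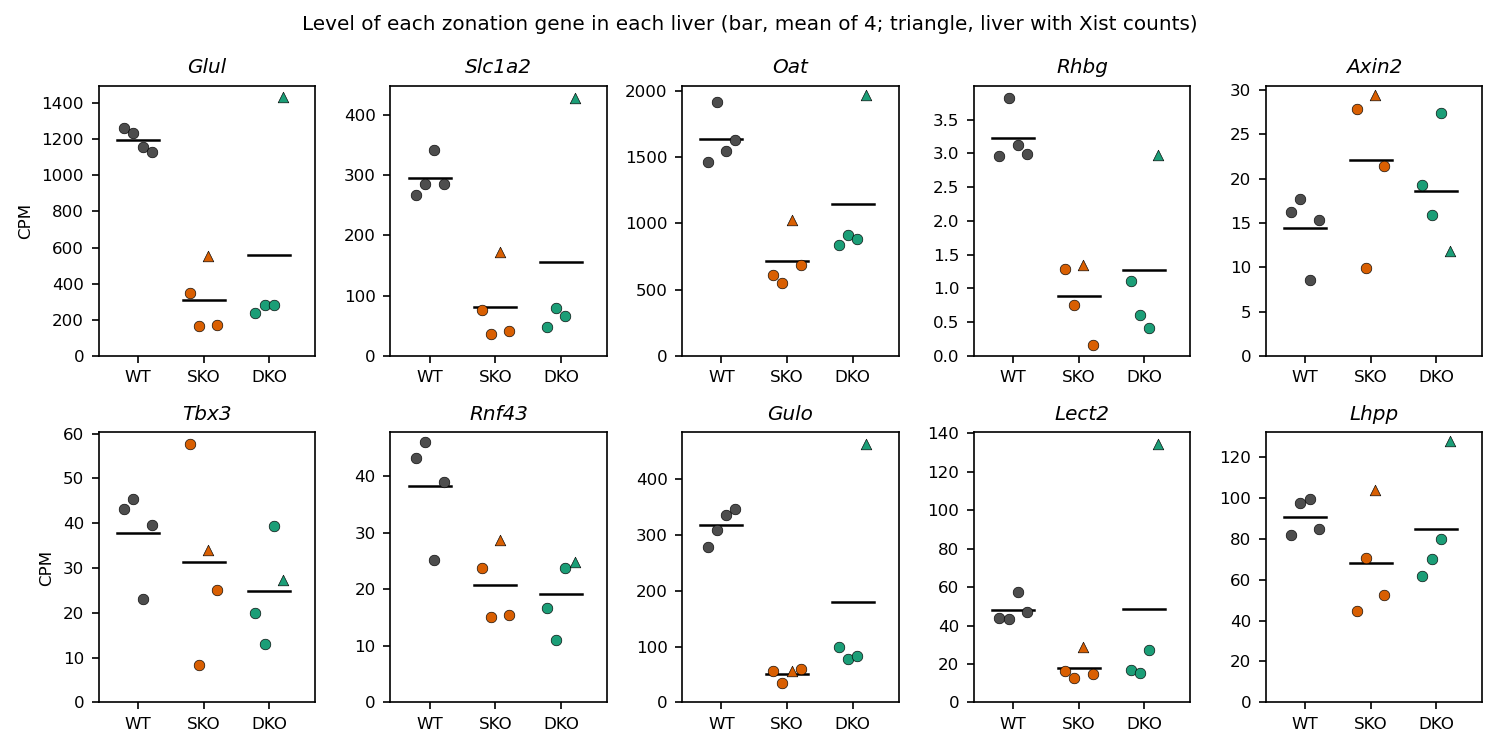
CPM of each of the 10 genes (vertical axis, from 0) in the 4 WT, 4 SKO and 4 DKO livers, 1 point per liver in replicate order and a bar at the group mean. Triangles mark SKO replicate 3 and DKO replicate 4, the livers high in Xist. DKO replicate 4 sits above all WT livers for 6 genes, among them Glul at 1431 CPM.

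The 3 genes known as direct readouts of Wnt signaling did not move as one group. Axin2 encodes a scaffold of the complex that degrades beta-catenin and is induced by Wnt as negative feedback. Its CPM was 16.2, 17.7, 8.61 and 15.4 in WT, 27.8, 9.87, 29.4 and 21.4 in SKO, and 19.3, 15.8, 27.4 and 11.9 in DKO. Every SKO liver but replicate 2 was above every WT liver. The fitted change was 0.62 on the log2 scale (SE 0.31, adjusted p = 0.152). It passed without SKO replicate 2 (log2 fold change 0.87, adjusted p = 0.0175) and without the filter on low counts (adjusted p = 0.0431), within a range of 0.0175 to 0.33 over 15 alternatives.

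Rnf43, a ubiquitin ligase that removes Frizzled receptors from the cell surface, was at 43.2, 46.0, 25.2 and 39.0 CPM in WT, 23.8, 15.03, 28.8 and 15.5 in SKO, and 16.7, 11.0, 23.8 and 24.9 in DKO. WT replicate 3 was the low WT liver, and only SKO replicate 3 exceeded it. Rnf43 fell 1.83-fold in SKO (log2 fold change -0.87, SE 0.24, adjusted p = 0.0153) and was called in all 15 alternatives. Tbx3, a T-box transcription factor of pericentral hepatocytes, had 43.1, 45.4, 23.0 and 39.5 CPM in WT, 57.8, 8.45, 34.0 and 25.2 in SKO, and 20.003, 13.0, 39.3 and 27.4 in DKO. SKO livers lay on both sides of the WT range, and the difference did not pass (log2 fold change -0.26, SE 0.43, adjusted p = 0.691). WT replicate 3 had the lowest WT value of Axin2, Tbx3 and Rnf43 together.

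Gulo, the last enzyme of vitamin C synthesis in the mouse, showed the largest change of the 10. Its CPM was 278, 309, 336 and 347 in WT, 55.6, 34.3, 56.3 and 60.2 in SKO, and 98.5, 77.6, 82.7 and 463 in DKO livers. The SKO livers were close together and far under WT. The level was 6.09-fold lower (log2 fold change -2.61, SE 0.18, adjusted p = 2.58e-06). Lect2, a secreted hepatocyte protein, was at 44.1, 43.4, 57.7 and 47.1 CPM in WT, 16.2, 12.6, 28.8 and 14.7 in SKO, and 16.7, 15.4, 27.3 and 134 in DKO. SKO did not reach the WT range and was 2.63-fold lower (log2 fold change -1.40, SE 0.23, adjusted p = 0.000797). That call was lost when all 12 livers entered a single fit (adjusted p = 0.0865, the highest of 15 alternatives, whose lowest was 9.48e-08).

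Lhpp, a phosphatase that acts on phosphohistidine, was at 81.6, 97.5, 99.5 and 84.8 CPM in WT, 44.8, 70.7, 104 and 52.5 in SKO, and 61.8, 70.1, 79.7 and 128 in DKO. The SKO values ran from under to above the WT range, with replicate 3 on top. With all livers the change was -0.40 on the log2 scale (SE 0.22, adjusted p = 0.191), and without SKO replicate 3 it was -0.67 (SE 0.16, adjusted p = 0.00896), within 0.00896 to 0.4 over the alternatives. Oat, on the other strand nearby, fell in both cases.

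SKO replicate 3 was the highest SKO liver for 8 of the 10 genes, against 22.3% of 9791 genes with a mean of at least 5 CPM. SKO replicate 2 was the lowest for 8, against 2697 of the 9791 genes. Without SKO replicate 3, 8 of the 10 genes were called lower, against 32.5% of 14475 genes called and 15.2% called lower. Glul was then at -2.37 on the log2 scale (SE 0.26), Rhbg at -2.12 (SE 0.47), Oat at -1.39 (SE 0.15), Gulo at -2.65 (SE 0.20), Lect2 at -1.71 (SE 0.15) and Rnf43 at -1.07 (SE 0.23). Axin2, at 0.46 (SE 0.32), and Tbx3, at -0.30 (SE 0.47), did not pass. Between 7 and 8 genes were called when any other single liver was left out, with 1 higher, Axin2, without SKO replicate 2. Over all genes these fits called 3617 to 4524, against 4576 with all livers.

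DKO against WT asked what remained of these differences in the livers labelled as lacking Atf3 as well, in which Atf3 counts were above WT in 3 of 4. The comparison uses the same WT livers as the one above. With all 8 livers 1 of the 10 genes, Rnf43, was called, against 10.5% of 14448 genes tested, of which 4.39% were lower. Rnf43 was 1.99-fold lower in DKO (log2 fold change -0.99, SE 0.27, adjusted p = 0.0468), and it was also the gene whose groups did not overlap, which with DKO lower held for 8.92% of all genes tested. The median log2 fold change of the 10 genes was -0.69, against 0.03 for all genes tested. Rnf43 passed in 7 of 15 alternatives, whose adjusted p ran from 0.00538 to 0.124. Fitted changes of the other genes ran from -1.32 for Rhbg (SE 0.52, adjusted p = 0.127) to 0.38 for Axin2 (SE 0.28, adjusted p = 0.408).

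The values of DKO replicate 4 decided this count. It exceeded the highest WT liver for 6 genes, Glul, Slc1a2, Oat, Gulo, Lect2 and Lhpp, and was under the lowest WT liver for Rnf43 alone. DKO replicates 1, 2 and 3 were under the lowest WT liver for 9, 9 and 8 genes. The share of all genes outside the WT range in each liver was not counted. In log2 CPM from the WT mean, the median of the 10 genes was -1.30, -1.69 and -0.85 in these livers and 0.26 in DKO replicate 4. For 9791 genes with a mean of at least 5 CPM it was 0.024, 0.069, -0.002 and -0.023. Without DKO replicate 4, 8 of the 10 genes were called and all were lower, against 35.9% of 14634 genes called and 17.5% called lower, and their median was -1.21. Glul was then 266 ± 26.3 CPM (SD, n = 3) and its log2 fold change was -2.16 (SE 0.12, adjusted p = 6.55e-07). The value was -2.18 for Slc1a2 (SE 0.17), -2.15 for Rhbg (SE 0.36), -1.87 for Gulo (SE 0.13) and -1.27 for Lect2 (SE 0.19). Rnf43 had -1.15 (SE 0.26), Oat -0.90 (SE 0.12) and Lhpp -0.36 (SE 0.12, adjusted p = 0.0362). Axin2, at 0.54 (SE 0.24), and Tbx3, at -0.64 (SE 0.33), were not called.

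**Figure D2:**
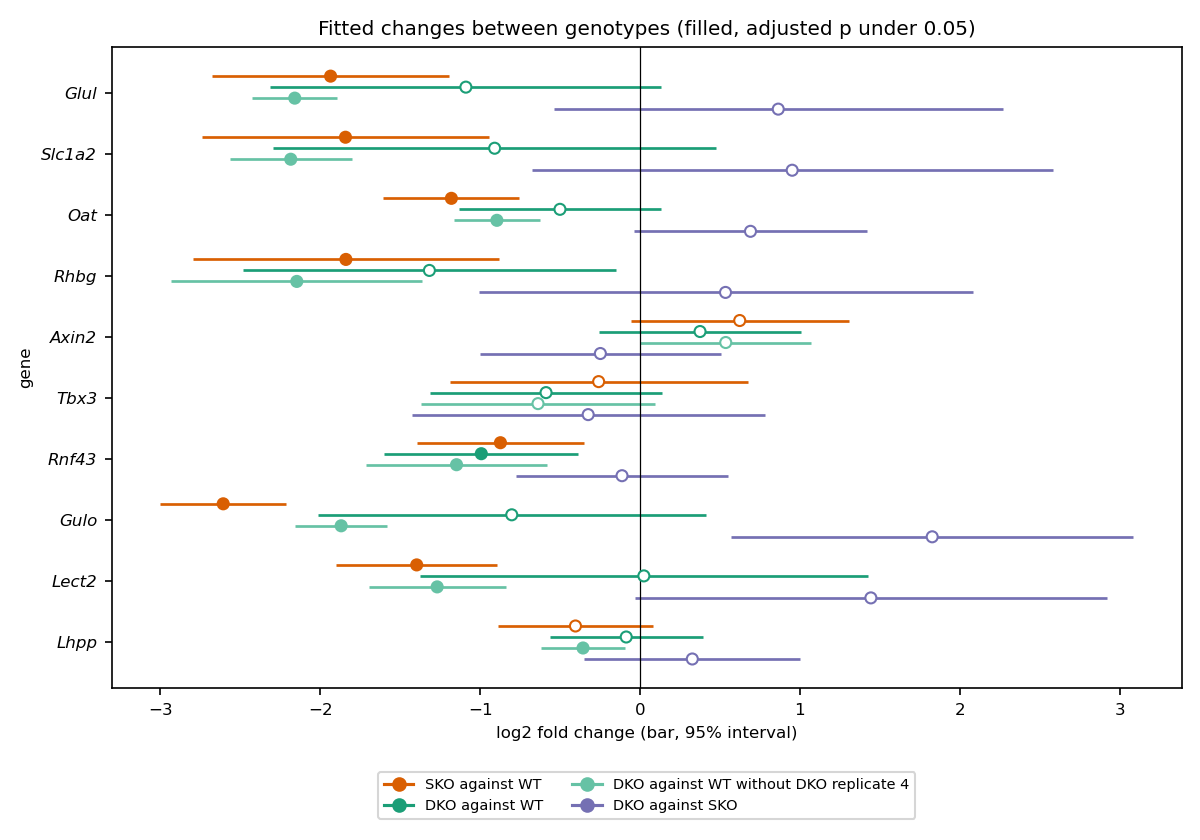
Fitted log2 fold change (horizontal axis) of each gene in SKO against WT, DKO against WT with and without DKO replicate 4, and DKO against SKO, with a bar for the 95% interval and filled points for an adjusted p under 0.05. Leaving out DKO replicate 4 moved Glul from -1.09 to -2.16 and narrowed its interval, and no gene passed in DKO against SKO.

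DKO against SKO is the comparison for the Atf3 label in livers labelled as lacking Cpt2. None of the 10 genes was called by edgeR, against 0.0209% of 14363 genes tested, and DESeq2 called none of the 7 genes to which it gave an adjusted p, having given none to Slc1a2, Gulo and Lect2. At an unadjusted p under 0.05 there was 1 gene, Gulo, against 6.49% of all genes tested. Gulo was higher in every DKO liver than in every SKO liver, which held for 2.30% of all genes. Its log2 fold change was 1.83 (SE 0.57, 95% interval 0.57 to 3.09, adjusted p = 0.563 by edgeR). Without DKO replicate 4 it was 0.74 (SE 0.20, 95% interval 0.30 to 1.17, adjusted p = 0.325 by edgeR) and the groups still did not overlap, which held for 7.66% of all genes in either direction. With SKO replicate 3 left out too, it was 0.78 (SE 0.21, adjusted p = 0.319). The adjusted p of Gulo ran from 0.121 to 0.971 over the alternatives that gave one.

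For the other genes the 95% intervals of the DKO minus SKO difference were wide and included 0. That of Glul was -0.54 to 2.27 around 0.86, and that of Slc1a2 was -0.68 to 2.58 around 0.95. Both estimates changed sign without DKO replicate 4, to -0.23 (interval -1.05 to 0.58) and -0.35 (interval -1.36 to 0.65), and with SKO replicate 3 left out too they were again above 0, at 0.21 (SE 0.27) and 0.32 (SE 0.28). Oat, with 0.69 (interval -0.04 to 1.42), and Lect2, with 1.44 (interval -0.03 to 2.92), stayed above 0 without that liver, at 0.28 (interval -0.20 to 0.76) and 0.12 (interval -0.53 to 0.77). Axin2 differed by -0.25 (interval -1.0 to 0.51), Tbx3 by -0.32 (interval -1.43 to 0.78) and Rnf43 by -0.11 (interval -0.78 to 0.55). Rhbg differed by 0.53 (interval -1.01 to 2.08) and Lhpp by 0.33 (interval -0.35 to 1.00). Leaving out both livers high in Xist, the values were 0.50 for Oat (SE 0.17), 0.45 for Lect2 (SE 0.24), 0.33 for Lhpp (SE 0.19), -0.33 for Tbx3 (SE 0.55), -0.07 for Rnf43 (SE 0.28), -0.03 for Rhbg (SE 0.66) and 0.08 for Axin2 (SE 0.33). None of the 10 genes passed in edgeR in that fit, and 0 passed without DKO replicate 4 alone, against 0.103% of 14589 genes.

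**Figure D3:**
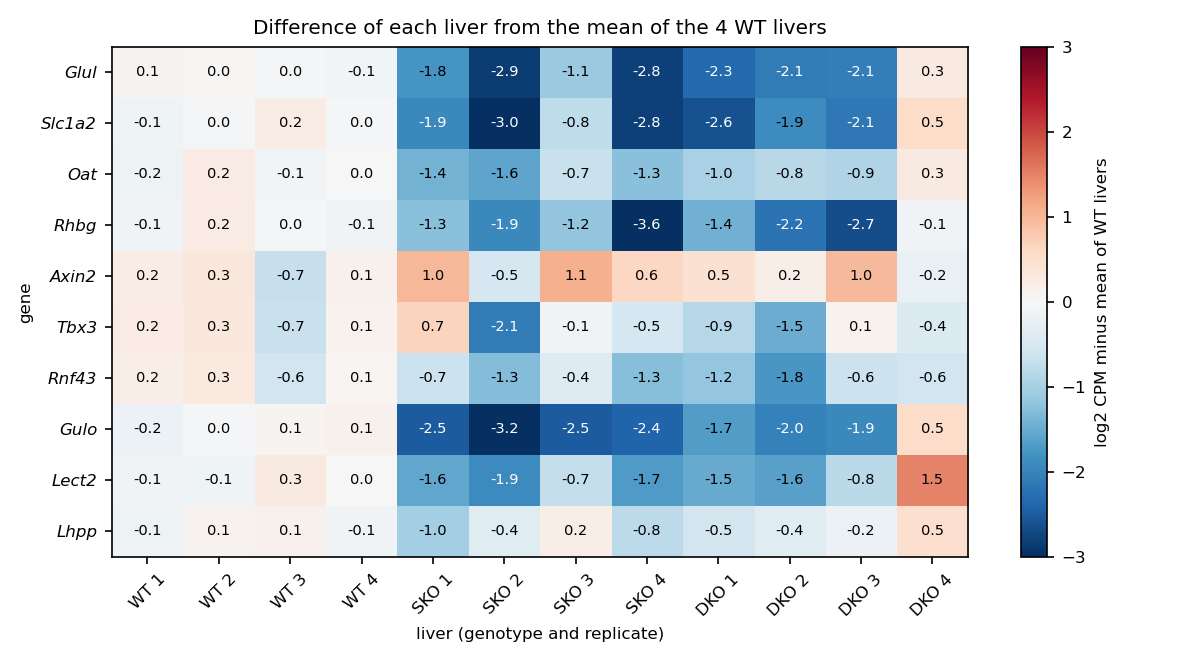
Difference of each of the 12 livers (columns) from the mean of the 4 WT livers, in log2 CPM, for each gene (rows); red is higher and blue lower. SKO livers and DKO replicates 1 to 3 are blue for Glul, Slc1a2, Oat, Rhbg, Rnf43, Gulo and Lect2, whereas DKO replicate 4 is near or above 0 for all but Tbx3, Rnf43 and Axin2.

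Across the 12 livers Glul, Slc1a2, Oat, Rhbg, Gulo and Lect2 varied together and Axin2 did not follow them. Pearson's r of log2 CPM with Glul was 0.99 for Slc1a2, 0.94 for Oat, 0.91 for Rhbg, 0.91 for Gulo and 0.90 for Lect2. It was 0.81 for Rnf43, 0.73 for Lhpp, 0.51 for Tbx3 and -0.31 for Axin2. These points share 3 genotypes and 1 liver that stands apart, so the values describe these livers only. With DKO replicate 4 left out, r with Glul was 0.99 for Slc1a2 and -0.22 for Axin2. Axin2 was nearest to Tbx3 among the 10 genes, with r = 0.56.

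Slc1a2 was also the most similar of 9790 genes to Glul over the 12 livers. After it came Akr1d1, a reductase of bile acid synthesis, with r = 0.98, Aldh8a1, an aldehyde dehydrogenase, with 0.98, the kinase gene Ikbke with 0.98 and Rasa3, a Ras regulator, with 0.98. The WT range of Akr1d1 was 232 to 295 CPM and its SKO range 4.71 to 27.2 CPM. DKO replicates 1 to 3 had 5.27 to 7.72 CPM, and DKO replicate 4 had 289. The genes most similar to Axin2 were Rasal2 (r = 0.86), Efnb1 (0.85), Pola2 (0.85), Col4a2 (0.82) and Map3k20 (0.81).

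**Figure D4:**
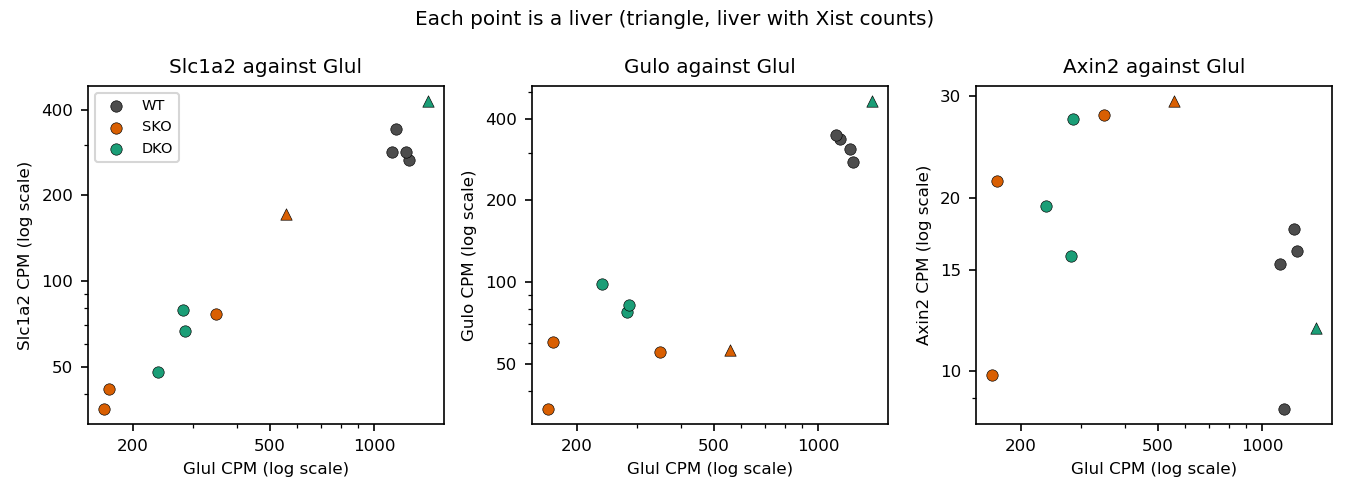
CPM of Slc1a2, Gulo and Axin2 (vertical, log scale) against CPM of Glul (horizontal, log scale), 1 point per liver, with triangles for the livers high in Xist. Slc1a2 rises with Glul over all 12 livers, Gulo is higher in DKO than in SKO livers at like Glul levels, and Axin2 has no common trend (r = -0.31).

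Other Wnt pathway genes were read from lists written by hand. Of the ligands, R-spondins and secretion factors, 8 of 10 were tested in SKO against WT, with 2 higher and 1 lower, a share near the 32.1% called over all genes. Rspo3, the R-spondin of the central vein, rose 2.06-fold (log2 fold change 1.04, SE 0.25, adjusted p = 0.00721), from a WT range of 2.74 to 3.17 CPM to an SKO range of 3.59 to 7.69 CPM without overlap. In DKO it was 4.97 to 8.18 CPM and 2.13-fold higher than WT (log2 fold change 1.09, SE 0.21, adjusted p = 0.0176), DKO replicate 4 being the lowest at 4.97 CPM. Wnt4 rose by 1.36 (SE 0.38) and Wnt2b fell by 1.02 on the log2 scale (SE 0.32). Wnt2 and Wnt9b, the Wnt ligands of liver endothelium, were low and did not pass, with log2 fold changes of 0.06 (SE 0.38) and 0.41 (SE 0.33).

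Among Wnt receptors and intracellular components, 24 of 25 were tested, with 2 higher and 5 lower in SKO against WT, which is no larger a share than the 32.1% called over all genes. The median log2 fold change was -0.03. The lower ones were all receptors. Lgr4 and Lgr5 bind R-spondins, and Lgr4 fell 2.60-fold (log2 fold change -1.38, SE 0.18, adjusted p = 0.000143). Lgr5, which marks pericentral hepatocytes, was at 5.25 to 5.92 CPM in WT and at 1.22, 0.354, 4.81 and 1.28 in SKO, with replicate 3 highest as for Glul (log2 fold change -1.54, SE 0.53, adjusted p = 0.0459). In DKO it was at 1.06, 2.25, 2.93 and 7.94 CPM. The Frizzled receptors Fzd8 (log2 fold change -1.56, SE 0.31) and Fzd5 (-0.84, SE 0.26) fell, as did Fzd4 (-0.69, SE 0.24), named with Dvl1 after its values were seen. The genes that rose were the transcription factor Tcf7 (0.92, SE 0.22) and Dvl1 (0.53, SE 0.16), which relays the Frizzled signal.

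Of the Wnt feedback inhibitors and antagonists, 6 of 13 were tested and 2 were lower, a share near that of all genes called. Notum, a secreted enzyme that inactivates Wnt, fell 2.80-fold in SKO (log2 fold change -1.48, SE 0.29, adjusted p = 0.00249), and Tnfrsf19 fell by 1.22 on the log2 scale (SE 0.30). Znrf3, the closest relative of Rnf43, was at 0.01 (SE 0.17, adjusted p = 0.969), Nkd1 at -0.12 (SE 0.20), Sp5 at 0.07 (SE 0.42) and Dkk3 at 0.15 (SE 0.29), and none of these passed. In DKO against SKO, 0 genes of these 3 Wnt lists were called by edgeR, with and without DKO replicate 4, beside 0.0209% and 0.103% of all genes. Under an unadjusted p of 0.05 there were 0 with all livers, beside 6.49% of all genes. Without that liver there were 0 of 8 ligand, R-spondin and secretion genes and 1 of 24 receptor and component genes, beside 7.22%. Of the feedback inhibitors and antagonists there were then 2 of 6.

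Both ends of the lobule had lower transcripts in SKO. Of 21 other pericentral genes, 16 were lower and 0 higher, with a median log2 fold change of -1.17, where 15.4% of all genes were lower. Cyp1a2, a drug-metabolising enzyme, fell 3.79-fold (log2 fold change -1.92, SE 0.23, adjusted p = 9.72e-05), and Cyp2e1, a broad pericentral enzyme, fell 1.60-fold (-0.68, SE 0.21, adjusted p = 0.0263). Cyp2c54 (log2 fold change -4.31, SE 0.39), Cyp7a1 (-3.54, SE 0.34), the rate-limiting enzyme of bile acid synthesis, and Cyp2c50 (-3.53, SE 0.35) changed most. Of 20 periportal genes tested, 17 were lower and 1 higher, with a median of -1.81. Cyp2f2, the usual periportal marker, fell 9.13-fold (log2 fold change -3.19, SE 0.40), Hal, of histidine breakdown, fell 10.5-fold (-3.39, SE 0.36), and Gls2, the liver glutaminase, fell 3.69-fold (-1.88, SE 0.16). Cps1, the entry enzyme of the urea cycle, was at -0.03 (SE 0.18, adjusted p = 0.932), and Hsd17b13 was the gene that rose (1.62, SE 0.15).

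**Figure D5:**
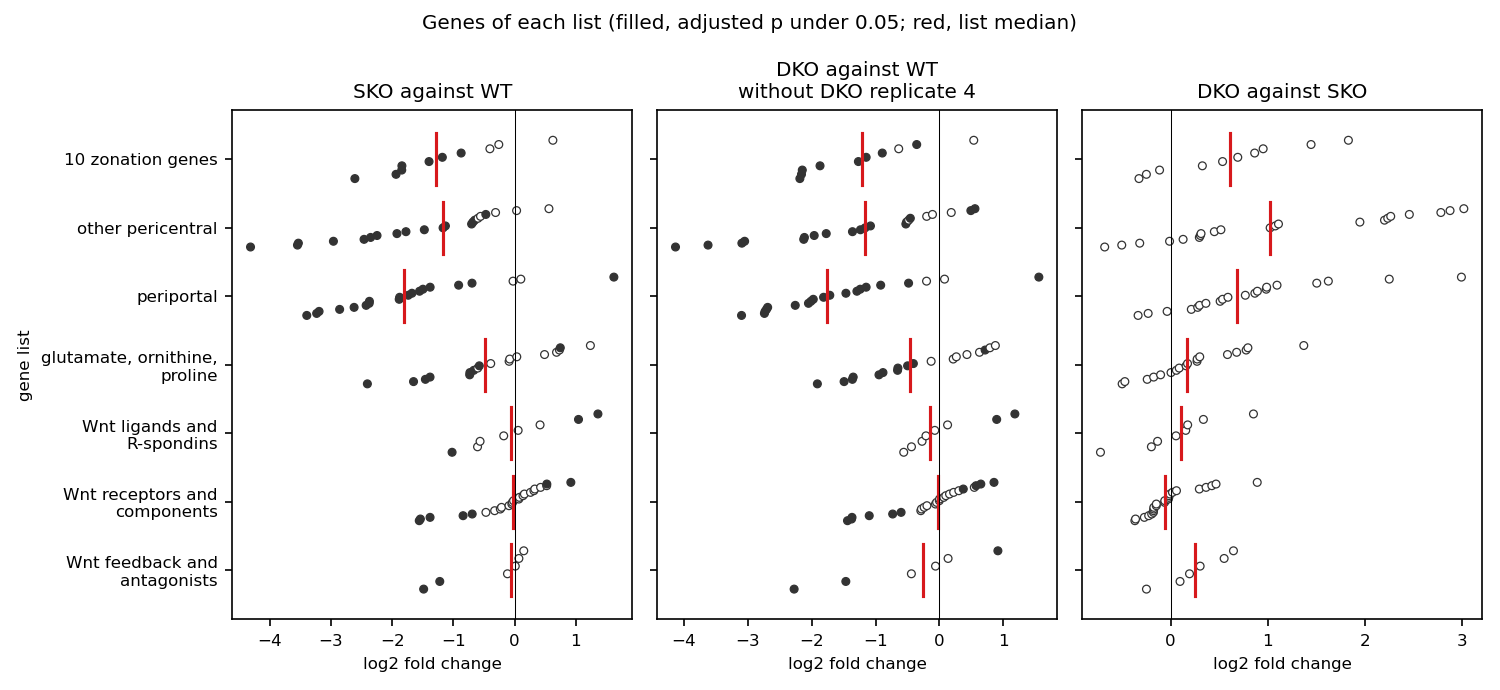
Log2 fold change (horizontal axis) of every tested gene of 7 lists in SKO against WT, DKO against WT without DKO replicate 4, and DKO against SKO; filled points have an adjusted p under 0.05 and red bars are list medians. In SKO against WT the medians of the 10 genes (-1.29), of the other pericentral (-1.17) and of the periportal genes (-1.81) all lie under 0, and those of the Wnt lists lie near 0.

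General hepatocyte markers moved with these lists. Against 32.1% of all genes called in SKO against WT and 15.4% lower, 5 of 7 tested were lower in SKO (median log2 fold change -0.89), and none of the 7 was at 0. Their summed level ranged over 72158 to 89136 CPM in WT and 35315 to 60848 CPM in SKO. In DKO it ranged over 40391 to 95191 CPM, with DKO replicate 4 the highest. Of 10 endothelial markers 0 were called by edgeR in any comparison, and 0 were under an unadjusted p of 0.05, and their summed levels of 228 to 506 CPM (WT), 298 to 377 CPM (SKO) and 262 to 379 CPM (DKO) overlapped. Of 6 cholangiocyte markers tested 2 were lower in SKO against WT, Sox9 (log2 fold change -1.87, SE 0.32) and Spp1 (-1.44, SE 0.23), both named after their values were seen. The summed cholangiocyte level of 48.3 to 56.0 CPM in WT compared with 22.1 to 30.9 CPM (SKO) and 26.8 to 52.4 CPM (DKO), DKO replicate 4 again being highest. Of 9 macrophage markers 1, Cd68, was called in SKO against WT, and it was higher. In DKO against WT 0 were called by edgeR (1 at an unadjusted p under 0.05, where 29.4% of all genes were), and without DKO replicate 4, 7 were lower and 1 higher, with a median of -1.07, where 17.5% of all genes were lower and 35.9% called. In DKO against SKO without that liver, 0 of 10 were called by edgeR, 7 were under an unadjusted p of 0.05 (7.22% of all genes were), and the median was -0.98. The summed macrophage level ranged over 249 to 492 CPM in WT and 231 to 524 CPM in SKO, and over 144 to 522 CPM in DKO, with DKO replicate 4 the highest. In SKO against WT, of 10 stellate cell and fibroblast markers 1 was higher, of 5 erythroid markers 2 were higher and 1 lower, of 3 lymphocyte markers 0 were called by edgeR (0 at an unadjusted p under 0.05), and no neutrophil marker passed the filter. What part these cells had in the results above was not tested.

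In DKO against WT, 1 of the other pericentral genes was lower and 1 higher, and 4 periportal genes were lower and 1 higher, where 4.39% of all genes were lower and 10.5% called. Without DKO replicate 4, a choice made after seeing the data, 15 pericentral genes were lower and 2 higher, and 17 periportal genes were lower and 1 higher, where 17.5% of all genes were lower and 35.9% called. Cyp1a2 showed the same outlying liver as Glul, with 154, 128, 124 and 1017 CPM in DKO against 249 to 333 in WT. Cyp2f2 did not return to the WT range in any DKO liver, with 161, 152, 218 and 368 CPM against 699 to 809 in WT. In DKO against SKO 0 genes of both lists were called by edgeR, and 12 of the pericentral and 7 of the periportal genes were under an unadjusted p of 0.05, as were 6.49% of all genes. Without DKO replicate 4 these counts were 6 and 2, beside 7.22% of all genes.

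Of 18 genes tested that work beside Glul and Oat on glutamate, ornithine and proline, 8 were lower in SKO against WT, 1 was higher and 9 were not called, where 15.4% of all genes were lower and 32.1% called. The lower ones included Otc, which uses ornithine in the urea cycle (5.29-fold, log2 fold change -2.40, SE 0.22, adjusted p = 1.69e-05), and Prodh, Prodh2 and Aldh4a1, which break down proline and hydroxyproline, with log2 fold changes of -1.65 (SE 0.16), -1.38 (SE 0.18) and -1.46 (SE 0.16). The higher one, named after its values were seen, was Odc1, which turns ornithine into putrescine (0.74, SE 0.17, adjusted p = 0.00519). The list's median was -0.48, and 0 of its genes were called in DKO against WT or DKO against SKO by edgeR, beside 10.5% and 0.0209% of all genes. Under an unadjusted p of 0.05 there were 7 and 3, beside 29.4% and 6.49% of all genes. Leaving out DKO replicate 4, 10 were lower and 1 higher in DKO against WT, where 17.5% of all genes were lower and 35.9% called, and 1 was under an unadjusted p of 0.05 in DKO against SKO, beside 7.22%.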

How the data were processed

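RNA-seq was done on 12 livers, 4 per genotype. The authors deposited raw counts per Ensembl gene and FPKM, that is counts scaled by gene length and library size; the submitters' processing notes name HISAT2 and the builds GRCm38 and mm10, and the counting program and annotation release are not given in the sources used here. Deposited fold changes and p-values of the authors' own comparisons were not used. Each pair of genotypes was fitted on its 8 livers with edgeR 4.0.16 in R 4.3.3, using TMM, filterByExpr and the two-sided quasi-likelihood test, with Benjamini-Hochberg adjustment over all genes tested and a threshold of 0.05. SEs were taken from the log2 fold change and its F statistic. CPM used TMM over all 12 livers, and correlations and the heat map used log2 CPM with a prior count of 2. P-values measure the spread between these livers. With 3 counts as the limit for a count of 0, the floor was at most 0.196 CPM, covering counting error only. No pair of livers of a genotype agreed within sampling noise (smallest chi-square per degree of freedom 18.5).

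Tested on simulated data for SKO against WT, edgeR recovered 195 of the 200 genes shifted by 2 on the log2 scale, with 16 false calls (14006 genes tested). The shifted genes left out the lowest transcripts, and no liver was made to stand apart. The simulation therefore does not cover smaller changes or the comparisons with DKO. The 10 genes and all lists were chosen with earlier results of these data known. Named from each list were the 4 genes with the smallest p in SKO against WT and in DKO against SKO, plus Lgr5, Wnt2, Wnt9b, Rspo3, Cyp2e1, Cyp1a2, Cyp2f2, Gls2 and Cps1, and the 5 genes most correlated with Glul and with Axin2. Alternatives were RLE and upper quartile scaling, DESeq2 1.42.0, no low-count filter, 1 fit of all 12 livers, a replicate block, each liver left out, and only livers with Y-linked counts. Sequences were taken from RefSeq (GRCm38.p6).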

Additional observations from a re-analysis of the deposited data

Results flagged for a closer look

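Among the 30 sets of 4 livers (10 genes in 3 genotypes), 5 had a liver whose gap to its nearest neighbour passed Dixon's 95% criterion, where chance gives about 1 in 20, or 1.5 of 30. All 5 were DKO replicate 4, which was high for Glul (1431 CPM), Slc1a2 (428 CPM), Oat (1965 CPM), Gulo (463 CPM) and Lect2 (134 CPM). The nearest DKO livers had 284, 79.0, 913, 98.5 and 27.3 CPM. In the same liver Xist had 20855 counts, Y-linked genes had 0 and Atf3 had 5, and the summed hepatocyte markers were at 95191 CPM. Their part in the 5 values was not tested. The other liver high in Xist, SKO replicate 3, passed this criterion for no gene, although its Glul (555 CPM) and Slc1a2 (172 CPM) were the highest of the SKO livers.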

How the results depend on the processing

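SKO against WT kept 6 to 8 called genes in every alternative. Over all genes it called 4576, against 3617 (without WT replicate 4) to 4973 (DESeq2) in the alternatives. In DKO against WT the count of 1 became 0 with upper quartile scaling or the replicate block and 8 with only the livers that had Y-linked counts, and leaving out single livers gave 0 to 8 (8 without DKO replicate 4, 1 without WT replicate 3, otherwise 0). DKO against SKO had 0 in all of them, DESeq2 having given no adjusted p for 3 of the 10 genes there and for 4 (Glul, Slc1a2, Gulo and Lect2) in DKO against WT. Replicate numbers showed no clear pairing of the livers. After group means were removed, same-numbered livers correlated at -0.43 to 0.16. SKO replicate 3 with WT and DKO replicate 2 with WT correlated best with their own number, and the others did not. With so few livers and DKO replicate 4 standing apart, this check cannot exclude a pairing. The replicate block left 7 and 0 called genes in SKO against WT and DKO against SKO, and turned Lect2 in DKO against WT to -0.66. Other signs that turned were those of Lect2 in DKO against WT (-0.027 without WT replicate 1, -0.03 without WT replicate 2, -1.27 without DKO replicate 4 or with Y-linked livers only), Lhpp (0.038 without DKO replicate 1) and Tbx3 in SKO against WT (0.059 without SKO replicate 2). In DKO against SKO they were Tbx3 (0.15 without SKO replicate 1), Rnf43 (0.084 without SKO replicate 3, 0.079 without DKO replicate 2), Glul, Slc1a2 and Rhbg without DKO replicate 4 (-0.23, -0.35 and -0.31), and, with Y-linked livers only, Rhbg (-0.031) and Axin2 (0.084). Over all genes, DKO against WT called 1510, against 2509 with DESeq2, 691 with the block, 5253 with Y-linked livers only and 244 to 5253 without single livers. DKO against SKO called 3, against 91 with DESeq2, 35 without the filter, 0 with the block, 21 with Y-linked livers only and 0 to 15 without single livers. Left-out livers moved Tbx3 down to -0.74 in SKO against WT, Lect2 up to 0.32 and Lhpp down to -0.36 in DKO against WT, and in DKO against SKO gave extremes of 1.297 for Glul, 1.61 for Slc1a2, 0.83 for Rhbg, -0.64 for Tbx3 and -0.28 for Rnf43. The causes were not tested. Rhbg had as few as 3 counts in a liver.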
